A study of Rattus norvegicus with 105 samples.

Results

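The subject here is a group of transferases in rat hepatocytes, most of which attach glucuronate, sulfate or glutathione to drugs, steroids and reactive chemicals. The members are the probes of the deposited count table whose symbol begins with Ugt1 or Ugt2 (glucuronosyltransferases), Ugt3 or Ugt8 (related glycosyltransferases), Sult1 to Sult6 (sulfotransferases), the mu, pi, kappa, theta, omega or zeta classes of Gst (glutathione transferases), or Mgst (microsomal glutathione transferases). The rule found 43 of 22253 probes, for 34 symbols, and the alpha class Gsta was left out. A group of 11 of these probes stayed below the filter on low counts in every fit, so 32 were tested. The median level over the 105 libraries was under 1 CPM (CPM, counts scaled to the same total in every library) for 13 probes, 1 to under 10 CPM for 12, 10 to under 100 CPM for 9, and at least 100 CPM for 9.

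Primary hepatocytes from Sprague-Dawley rats (females, one commercial lot) had been exposed in collagen-coated 96-well plates for 24 h, and RNA was counted with TempO-Seq, an assay in which pairs of short detector probes are ligated on each transcript and sequenced. Set 1 (72 libraries) held benzo[a]pyrene (BaP, 50 µM, which activates AhR, the aryl hydrocarbon receptor), CITCO (10 and 20 µM, an agonist of the human nuclear receptor CAR with less potency on the rat receptor), rifampin (20 and 40 µM, an agonist of human PXR), WY-14643 (50 µM, an agonist of PPARα), nitromethane (NM) and nitroethane (NE) at 8 concentrations in steps of about 3 times (0.003 to 10 mM), plain medium and DMSO. Set 2 (33 libraries) held 1-nitropropane (1NP) at the same 8 concentrations, WY-14643, medium and DMSO. There were 35 groups of n = 3 libraries, 105 in all, and no group carried a genetic change. The 3 nitroalkanes carry a nitro group on carbon chains of increasing length. Sample titles give nitroalkanes in µM and the protocol gives mM (mM is used here), WY-14643 of set 2 is 50 µM in the titles and 100 in the library names, and DMSO is 0.2% by the protocol and 0.5 by the titles. Whether nitroalkane wells held DMSO is not labelled, so each exposure was set against both medium and DMSO of its own set. All wells hold cells of one lot, so p-values speak of variation among wells of a lot, not among animals.

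Glucuronosyltransferases sit in the endoplasmic reticulum and transfer glucuronate from UDP-glucuronate. Cytosolic sulfotransferases take sulfate from the cofactor PAPS, and glutathione transferases join glutathione to electrophiles. In liver these enzymes make lipophilic compounds soluble for export into bile or blood, and several of their genes are known targets of AhR, CAR, PXR, PPARα or NRF2.

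Levels are given in CPM and changes are log2 ratios with their standard error (SE). A member was called where edgeR's quasi-likelihood test gave an adjusted p below 0.05 (Benjamini-Hochberg, across every probe tested), and all adjusted p-values below are from that test. Library totals ran from 5475419 to 11122665 counts (median 8680678), and members held 0.308 to 0.818% of them. Summed hepatocyte markers (9 probes) ran from 6485 to 15837 CPM, endothelial markers (6 probes) stayed at or under 8.12 CPM, lymphocyte markers (5 probes) at or under 7.46 CPM, Kupffer markers (7 probes) at or under 17.98 CPM and erythroid markers (2 probes) at or under 4.53 CPM, with medians of 0 CPM for Pecam1, Vwf, Stab2, Cd3d, Ptprc, Marco and Hbb. The highest endothelial, lymphocyte, Kupffer and erythroid sums were all in NE 10 mM replicate 2. Of the Kupffer markers, Csf1r, Cd68 and Cd163 had medians above 0, at 2.35, 1.32 and 0.227 CPM. Stellate markers (7 probes) had a median sum of 557 CPM in set 1, nearly all from Tagln, while Des, Pdgfrb and Col1a1 had medians of 0 CPM. Cholangiocyte markers (6 probes) had a median sum of 641 CPM in set 1, carried by Sox9 and Epcam.

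Before the results, 5 libraries have to be set apart, since each correlated below 0.98 with its own group over all probes. NE 10 mM replicate 2 (0.952) had counts in 21627 probes, against a median of 13792 per library. NM replicate 3 at 10 mM (0.967), NM replicate 1 at 3 mM (0.967) and NM replicate 1 at 1 mM (0.979) also stood apart, and the first 2 of these correlated best with each other (0.991). The library labelled 1NP 10 mM replicate 3 (0.970) was closer to NE 10 mM replicates 3 and 1 (0.991 with each) than to its own group. Results at 10 mM, and those for NM at 3 mM, are given with them and, where they move the result, without them. Of the 11 probes that passed no filter, 10 were highest in NE 10 mM replicate 2.

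Several symbols are read by more than one probe, and families of close relatives may share reads. Over the 24 group means of set 1, the log2 levels of the probe pair for Ugt2b17 correlated at 0.97 and those for Ugt2b15 at 0.90, while the pair for Ugt1a9 gave 0.42 and the pair for Gstm2 gave 0.48. The 4 Sult2a2 probes correlated at 0.88 to 0.91 with each other. Set 2, with 11 group means, gave 0.93 for Ugt2b17, 0.95 for Ugt2b15, 0.81 for Ugt1a9 and 0.41 for Gstm2. Its Sult2a2 pairs gave 0.37 to 0.84. These are descriptions over groups that share a cell lot, and probes of one symbol are not replicates. In the RefSeq gene table (GRCr8), 8 Ugt1a models share one end, so which of them the Ugt1a9 probes read is not resolved here. Ugt2b17 and Ugt3a2 are not current symbols there, and Ugt2b17 is listed as a synonym of Ugt2b15. Ugt2b15 is itself listed as a synonym of Ugt2b35, Gstm3 as one of Gstm5 and Gstm4 as one of Gstm3. Which gene the probes with these symbols read is not resolved here.

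Sult1b1, Sult1d1, Sult1e1, Ugt2a3, Ugt2b15 and Ugt2b35 lie together on chromosome 14. Of the 17 protein-coding genes between the first and last Sult1 or Ugt2 gene of that chromosome, 14 are named Sult1 or Ugt2. Sult1a1 lies on chromosome 1 and Sult1c2, Sult1c2a and Sult1c3 on chromosome 9, while Ugt2b17, not a current symbol, was given no position. Upstream sequences from RefSeq (GRCr8, 250 bases before the gene's start) were found for 28 of the 34 symbols and searched on both strands for GCGTG, the core of the AhR response element, and TGACNNNGC, a core of the antioxidant response element. GCGTG was present in 5 of the 28, against 25.9% of all 33469 upstream windows of that length, and TGACNNNGC in 3 of the 28, against 10.1%. Gstp1 is shown first because it rose with BaP and is 1 of the members with both motifs, which are in capitals (GCGTG on the other strand, so it reads CACGC). Gstm5, the other member with both motifs, had group means of 3.79 CPM with BaP, 3.87 CPM in medium and 2.53 CPM in DMSO of set 1. Ugt2b15 and Ugt2b35 are shown because both rose with BaP against medium and with 10 mM NE, and hold neither motif. The capitals in these 2 mark a run of 31 bases that they share, the longest among the 378 pairs of members, for which the median was 8 and the next longest 13.
Gstp1, chr1:210769706-210769955, minus strand: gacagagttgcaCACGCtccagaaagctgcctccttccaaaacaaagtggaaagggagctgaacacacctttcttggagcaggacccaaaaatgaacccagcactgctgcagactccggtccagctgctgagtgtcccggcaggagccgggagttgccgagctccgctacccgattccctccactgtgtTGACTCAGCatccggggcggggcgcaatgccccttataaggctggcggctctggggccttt
Ugt2b15, chr14:21122616-21122865, plus strand: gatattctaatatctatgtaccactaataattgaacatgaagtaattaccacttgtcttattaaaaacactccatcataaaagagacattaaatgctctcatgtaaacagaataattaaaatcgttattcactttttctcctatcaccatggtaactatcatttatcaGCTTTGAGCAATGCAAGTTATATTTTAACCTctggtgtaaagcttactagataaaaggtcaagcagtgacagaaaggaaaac
Ugt2b35, chr14:21208191-21208440, plus strand: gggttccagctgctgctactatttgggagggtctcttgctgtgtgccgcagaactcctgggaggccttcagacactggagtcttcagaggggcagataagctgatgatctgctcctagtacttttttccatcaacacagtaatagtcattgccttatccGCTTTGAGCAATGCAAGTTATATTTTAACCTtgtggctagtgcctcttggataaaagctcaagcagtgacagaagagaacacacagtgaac
A match or its absence describes these letters only. No probe sequence or genome position of a probe was used.

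Medium and DMSO differed in these genes, which bears on all comparisons. In set 1, 2 of 32 members were higher and 10 lower in medium than in DMSO (7.06% of all probes were called). Sult1b1, which sulfates thyroid hormones and phenols, had 31.7, 36.6 and 23.1 CPM in medium and 106, 97.5 and 69.5 CPM in DMSO (-1.62 ± 0.31, adjusted p = 0.00252). Ugt2b15, whose human namesake glucuronidates androgens, was read by Ugt2b15_33121 at 92.8, 102 and 74.6 CPM in medium and 193, 183 and 151 CPM in DMSO (-1.01 ± 0.22, adjusted p = 0.006). In both genes all medium wells lay below all DMSO wells. Ugt2b35 (-0.72 ± 0.15), the microsomal transferase Mgst1 (-0.55 ± 0.11) and the theta class Gstt2 (-0.38 ± 0.09) were also lower in medium. Gstk1, the kappa class enzyme of mitochondria and peroxisomes (0.43 ± 0.10), and the omega class Gsto1 (0.38 ± 0.09) were higher in medium.

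Set 2 gave 1 member higher and 13 lower of 29 tested in medium against DMSO (24% of all probes called). Sult1b1 had 21.1, 16.3 and 28.7 CPM in medium and 94.8, 66.98 and 93.2 CPM in DMSO (-2.04 ± 0.21, adjusted p = 1.06e-05), without overlap. Of the 7 members named here for set 1, all but Gsto1 were named in the same direction in set 2. For Sult1b1 the difference in set 1 minus that in set 2 was 0.43 ± 0.33, adjusted p = 0.522, and for Gsto1 it was 0.37 ± 0.14, adjusted p = 0.157. Summed hepatocyte markers were 8636 to 10806 CPM in medium and 14601 to 15837 CPM in DMSO of set 1, and stellate markers 424 to 825 CPM in medium and 204 to 254 CPM in DMSO. Medium wells lay in one plate row and DMSO wells in another, so vehicle and row cannot be told apart, and the part of the markers was not tested. In such bulk wells, fewer cells of a type and less RNA per cell cannot be told apart either.

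BaP raised Ugt2b17, Ugt2b35 and the pi class transferase Gstp1 against both controls. Against DMSO, 7 of 32 members were higher and 1 lower (9.17% of all probes called), with a median log2 change of 0.31 over the members and 0.00 over all probes. Against medium, 15 were higher and 2 lower (19.7%), with a median of 0.53. Among the 9 Ugt probes tested, 3 rose against DMSO and 7 against medium, none of the 8 Sult probes rose against DMSO and 2 did against medium.

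The change with BaP was clearest in Ugt2b17. Ugt2b17_33303 had 57.1, 60.8 and 55.8 CPM with BaP, 12.1, 10.02 and 9.79 CPM in medium and 14.3, 15.1 and 11.4 CPM in DMSO. Each BaP well lay above every control well, with a log2 change of 2.03 ± 0.20, adjusted p = 1.07e-08 against DMSO. Its second probe, Ugt2b17_33224, had 54.7, 61.3 and 54.02 CPM with BaP and 20.6, 16.9 and 15.6 CPM in DMSO (1.61 ± 0.31, adjusted p = 0.00113). Both probes of this symbol, whose human namesake conjugates androgens, gave separate groups.

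Ugt2b35 had 208, 214 and 211 CPM with BaP, 71.7, 77.8 and 57.7 CPM in medium and 126, 111 and 94.9 CPM in DMSO. It rose by 0.87 ± 0.15, adjusted p = 0.000163 against DMSO, and again no BaP well overlapped a control. Its neighbour Ugt2b15 (Ugt2b15_33121) had 239.9, 230.5 and 168 CPM with BaP and 193, 183 and 151 CPM in DMSO. These groups overlapped, and the change against DMSO was 0.22 ± 0.21, adjusted p = 0.628, while against medium Ugt2b15_33121 rose by 1.23 ± 0.22, adjusted p = 0.000416. The abundant probe Ugt1a9_52802, of the UGT1 locus, had 1201, 1099.6 and 929 CPM with BaP, 829, 820.5 and 890.3 CPM in medium and 907, 847 and 701 CPM in DMSO. It rose against medium (0.33 ± 0.11, adjusted p = 0.0425) and gave 0.33 ± 0.12, adjusted p = 0.0678 against DMSO.

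Gstp1, the pi class enzyme known in rat liver as a marker of preneoplastic foci, had 2912, 3104 and 3517 CPM with BaP, 2203, 2188 and 2321 CPM in medium and 1728, 1856 and 2097 CPM in DMSO. It rose against DMSO (0.68 ± 0.09, adjusted p = 1e-06) and against medium (0.48 ± 0.09, adjusted p = 8.38e-05), all BaP wells lying above all controls. Gstt2 had 219, 247 and 208 CPM with BaP and 165, 159 and 161 CPM in DMSO (0.41 ± 0.09, adjusted p = 0.00191). Mgst2, a microsomal enzyme that can form leukotriene C4, rose by 0.40 ± 0.09, adjusted p = 0.00183 against DMSO.
Gstk1 went the other way, with 74.2, 68.3 and 77.2 CPM with BaP, 133, 145 and 134 CPM in medium and 104, 91.5 and 101 CPM in DMSO. Its BaP wells were below every control well, and it fell against DMSO (-0.50 ± 0.10, adjusted p = 0.00138) and against medium (-0.93 ± 0.10, adjusted p = 5.91e-08).
The phenol sulfotransferase Sult1a1 had 100.4, 90.4 and 67.5 CPM with BaP, 82.9, 84.9 and 72.9 CPM in medium and 69.6, 67.05 and 59.3 CPM in DMSO, which overlap, and was called against neither.

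**Figure D1:**
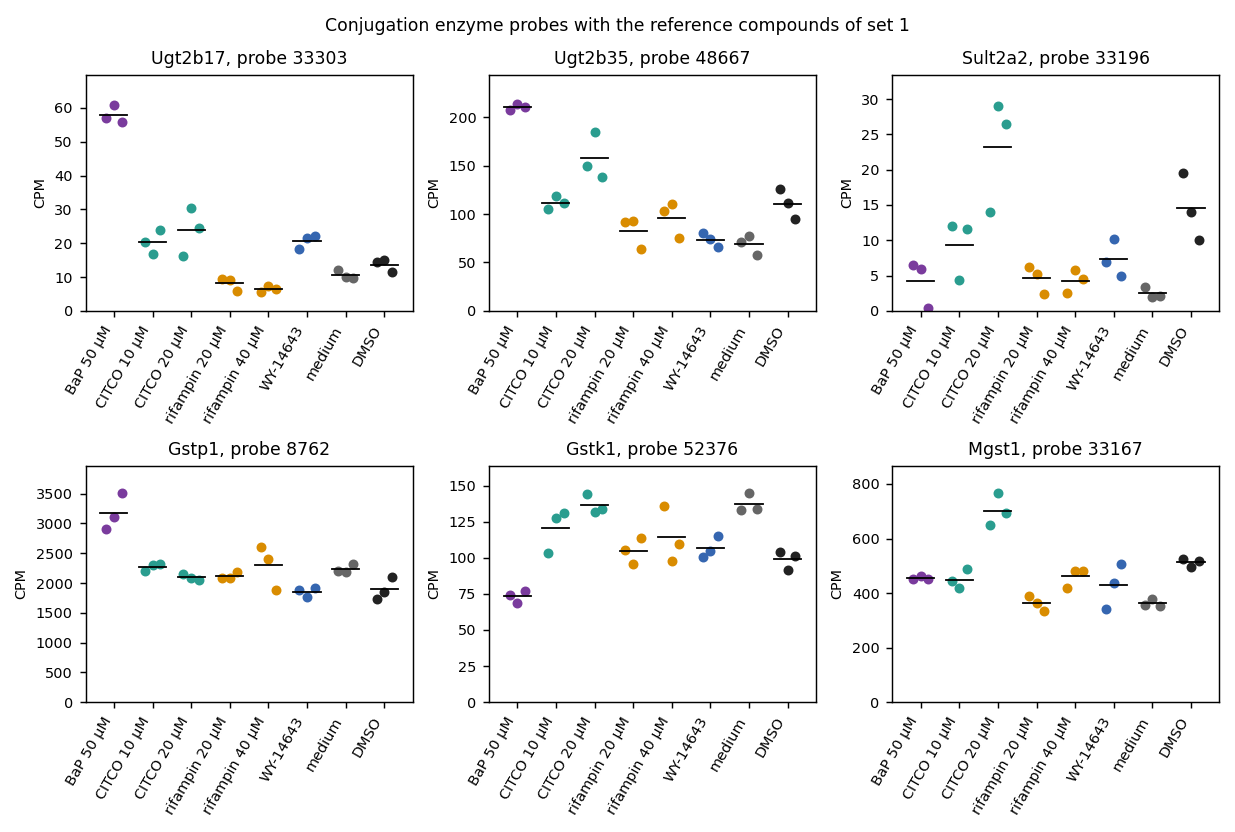
CPM of 6 member probes in each well of the set 1 reference compounds, medium and DMSO (points, n = 3 a group; lines mark the mean). The BaP wells of Ugt2b17_33303 lie at 55.8 to 60.8 CPM, apart from all other groups, while Sult2a2_33196 and Mgst1 have their highest means with CITCO at 20 µM.

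Summed hepatocyte markers were 11477 to 12590 CPM with BaP, between those of medium and DMSO, with 3 of 9 probes higher than in medium and 3 lower than in DMSO. Stellate markers were 160.4 to 274 CPM with BaP (2 of 2 tested lower than in medium), and cholangiocyte markers 383 to 431 CPM with BaP, against 627 to 737 CPM in medium and 545 to 624 CPM in DMSO (2 of 4 tested lower than in each). Their part in the BaP changes was not tested.

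Genes that supply cofactors were read against the same 9.17% of all probes called with BaP against DMSO. Of 5 UDP-glucuronate supply probes, 3 rose against DMSO and none fell, among them Ugdh, which makes UDP-glucuronate (1.03 ± 0.17, adjusted p = 0.000184). Of 9 glutathione synthesis and recycling probes, 4 rose, among them Gclc, the catalytic subunit of the rate-limiting step (0.85 ± 0.11, adjusted p = 1.05e-06). The 6 PAPS supply probes gave log2 changes of -0.77 to 0.32, none of them called by edgeR, as did the 2 deconjugating enzyme probes (-0.01 to 0.05). Of 5 exporter probes, 2 rose, and of 12 regulator probes, 5 rose, among them Ahrr, the AhR repressor (4.60 ± 0.69, adjusted p = 1.77e-05), and Nfe2l2, which encodes NRF2 (0.97 ± 0.08, adjusted p = 3.96e-10). These lists were chosen with earlier results known.

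CITCO at 20 µM differed from medium in 16 of 32 members (14 higher, 2 lower, with 14.7% of all probes called) but from DMSO in 1 (0.843%). The medians were 0.34 against medium and 0.11 against DMSO. Sult2a2, of the hydroxysteroid and bile acid sulfotransferases, was read by Sult2a2_33196 at 14.02, 29.02 and 26.4 CPM with 20 µM CITCO, 3.36, 2.00 and 2.05 CPM in medium and 19.5, 13.9 and 10.04 CPM in DMSO. Its CITCO wells lay above all medium wells (3.24 ± 0.62, adjusted p = 0.00133) and overlapped the DMSO wells (0.65 ± 0.51, adjusted p = 0.713). Mgst1 had 649, 766 and 692 CPM with 20 µM CITCO, 357, 379 and 351 CPM in medium and 526, 496 and 519 CPM in DMSO. It rose by 0.97 ± 0.11, adjusted p = 2.83e-07 against medium, and although its CITCO wells were also above all DMSO wells, that change was not called (0.42 ± 0.11, adjusted p = 0.062). The member called against DMSO was Gstk1, with 144, 131 and 134 CPM with CITCO and 104, 91.5 and 101 CPM in DMSO (0.44 ± 0.10, adjusted p = 0.03), and this call was lost when any 1 of these 6 libraries was left out. Against medium, Gstk1 gave 0.01 ± 0.10, adjusted p = 0.976.

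Against medium, Sult1b1 (1.58 ± 0.31), Ugt2b17_33224 (1.49 ± 0.32), Ugt2b35 (1.21 ± 0.15) and Ugt2b15_33121 (0.97 ± 0.22) also rose with 20 µM CITCO, and Gsto1 fell (-0.43 ± 0.09). None of these was called against DMSO. Their group means, in that order, were 89.9, 26.6, 157.7, 173.9 and 381.6 CPM with 20 µM CITCO and 91.0, 17.7, 110.6, 175.6 and 388.2 CPM in DMSO. At 10 µM, 5 of 32 members were higher than in medium (2.58%), among them Sult1b1 (1.33 ± 0.31, adjusted p = 0.0244) and Ugt2b35 (0.71 ± 0.15, adjusted p = 0.00681), and that count fell to 1 without medium replicate 3 or CITCO replicate 3 and to 2 without medium replicate 1 or CITCO replicate 1. Over all probes, 132 to 253 were called in those refits, against 312 with all libraries. No member was called at 10 µM against DMSO by edgeR or DESeq2 (0.149%), with 4 at an unadjusted p under 0.05. Hepatocyte markers summed to 12872 to 15032 CPM with 20 µM CITCO, and their part in the differences from medium was not tested.

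No member was called higher with rifampin. At 20 µM, 5 of 32 were lower than in DMSO (2.87%), and at 40 µM, 3 were (1.69%). Ugt2b17_33303 had 5.43, 7.23 and 6.54 CPM with 40 µM rifampin and 14.3, 15.1 and 11.4 CPM in DMSO, without overlap (-1.16 ± 0.22, adjusted p = 0.0035). Ugt2b15_33121 also fell at 40 µM (-1.08 ± 0.22, adjusted p = 0.0136). At 20 µM the falls were in Ugt2b17_33224 (-1.27 ± 0.34), Ugt2b15_33121 (-0.93 ± 0.22), Ugt2b17_33303 (-0.79 ± 0.22), Mgst1 (-0.55 ± 0.11) and Gstt2 (-0.38 ± 0.09). Against medium no member was called at 20 µM (0.273%, with 4 at an unadjusted p under 0.05 in edgeR and 1 called by DESeq2). At 40 µM, 3 were lower than in medium (3.31%), and these were Sult1a1 (-0.54 ± 0.14), Mgst2 (-0.36 ± 0.09) and Gsto1 (-0.35 ± 0.09). The counts at 20 µM against DMSO came to 1 or 2 without DMSO replicate 1 or 2 or rifampin replicate 1 or 3, and those at 40 µM to 1 without the same libraries. Hepatocyte markers summed to 8606 to 10566 CPM with 20 µM rifampin and 9719 to 11715 CPM with 40 µM, against 14601 to 15837 CPM in DMSO. Of the 9 probes, 4 were lower than in DMSO at 20 µM (median log2 change -0.67) and 2 at 40 µM (median -0.59), and their part in the falls of the members was not tested. The count at 40 µM against medium was 0 or 1 without medium replicate 1 or 2 or rifampin replicate 1 or 2.

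WY-14643 differed from DMSO in 4 members of set 1, all lower (4.88%), and in none of set 2 (0.901%, by edgeR and DESeq2, with 5 at an unadjusted p under 0.05). In set 1, Ugt2b35 had 80.3, 74.04 and 66.4 CPM with WY-14643 and 126, 111 and 94.9 CPM in DMSO, without overlap (-0.70 ± 0.15, adjusted p = 0.00495). Ugt2b15_33121 (-0.82 ± 0.22) and Gstt2 (-0.46 ± 0.09) were lower too. Hepatocyte markers summed to 9293 to 10660.2 CPM with WY-14643 and 14601 to 15837 CPM in DMSO of set 1, with 6 of 9 probes lower (median log2 change -0.72), and their part in these falls was not tested. For Ugt2b35 the change in set 1 minus that in set 2 was -0.06 ± 0.17, adjusted p = 0.958, so a difference between the sets was not called.

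Against medium, WY-14643 gave 1 member higher and 4 lower in set 1 (5.8%), and 12 higher and 1 lower of 29 in set 2 (16.9%). Gstk1 was the member lower in both, at 101, 105 and 115 CPM with WY-14643 and 133, 145 and 134 CPM in medium of set 1 (-0.43 ± 0.10, adjusted p = 0.00842), and at 107, 89.1 and 96.1 CPM with WY-14643 and 123, 151 and 148 CPM in medium of set 2 (-0.46 ± 0.13, adjusted p = 0.0171). In set 2, both Ugt1a9 probes rose against medium (Ugt1a9_33117 by 0.75 ± 0.22 and Ugt1a9_52802 by 0.63 ± 0.12), as did Ugt2b15_33121 (1.21 ± 0.16), Sult1b1 (1.67 ± 0.21) and Mgst1 (0.79 ± 0.14). Against DMSO of set 2 these gave 0.25 ± 0.22, 0.25 ± 0.12, -0.26 ± 0.15, -0.37 ± 0.20 and 0.004 ± 0.14, and Gstk1 gave 0.12 ± 0.13, none of them called. The count in set 2 was 7 without medium replicate 5, 7 without WY-14643 replicate 4 and 8 without WY-14643 replicate 5. Over all probes, 1031, 867 and 895 were called in these refits, against 1954 with all libraries. In set 1 the count against medium was 2 or 3 without medium replicate 2 or 3 or WY-14643 replicate 1 or 2, and against DMSO it was 2 without DMSO replicate 1 or 2 or WY-14643 replicate 1 or 2. Over all probes, 260 to 455 were then called against medium (702 with all libraries) and 246 to 312 against DMSO (591).

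From 0.003 to 1 mM the nitroalkanes gave few calls against medium. No member was called for NM or NE against medium at any of these 6 concentrations in edgeR (0 to 0.00818% of all probes called for NM and 0, 0.0162, 0, 0, 0.0324 and 0.219% for NE, from low to high concentration), with at most 8 at an unadjusted p under 0.05. For 1NP, Sult2a2_33196 was the 1 member called at 0.01 mM (0.19%) and at 1 mM (0.066%), with 4.02, 5.65 and 7.77 CPM at 1 mM and 1.47, 0.455 and 1.45 CPM in medium (2.46 ± 0.49, adjusted p = 0.0478). Group means of Sult1b1 over these concentrations were 26.99 to 52.7 CPM for NM, 34.9 to 63.7 CPM for NE and 24.7 to 66.8 CPM for 1NP. Those of Gstz1, the zeta class isomerase of tyrosine breakdown, were 53.9 to 64.2 CPM for NM, 53.9 to 65.1 CPM for NE and 50.9 to 68.9 CPM for 1NP. Against DMSO every NM or NE call at these concentrations was lower. From low to high concentration, NM gave 8, 3, 3, 4, 7 and 3 such members, with 3.88, 1.01, 1.77, 2.03, 3.14 and 2.05% of all probes called. NE gave 6, 1, 5, 7, 9 and 3, with 2.97, 2.68, 2.68, 3.44, 5.29 and 2.81% of all probes called. For 1NP against DMSO there were 5 higher and 8 lower at 0.003 mM (20%), 2 higher and 2 lower at 0.1 mM (5.09%), 1 higher at 1 mM (1.49%) and none at the other 3 by edgeR (8 or 9 at an unadjusted p under 0.05).

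At 3 mM, NE raised 16 of 32 members against medium and lowered none (11.5%), with a median log2 change of 0.82. Against DMSO, 7 were higher and none lower (6.08%, median 0.43). Sult1b1 had 184, 171 and 172 CPM with 3 mM NE, 31.7, 36.6 and 23.1 CPM in medium and 106, 97.5 and 69.5 CPM in DMSO. It rose by 2.60 ± 0.27, adjusted p = 2.79e-07 against medium and by 0.96 ± 0.25, adjusted p = 0.021 against DMSO, above all wells of both. Sult2a2_9972 had 27.3, 18.7 and 17 CPM with 3 mM NE, 2.90, 3.01 and 0.456 CPM in medium and 15.4, 11.2 and 7.25 CPM in DMSO. All its NE wells were above medium (3.39 ± 0.45, adjusted p = 8.32e-06) and above DMSO, where the change was 0.92 ± 0.34, adjusted p = 0.116. Mgst1 had 692, 815 and 898 CPM with 3 mM NE and 357, 379 and 351 CPM in medium (1.22 ± 0.22, adjusted p = 0.000407), with no overlap. Gstk1, lower with BaP, was higher with 3 mM NE than in DMSO (0.69 ± 0.14, adjusted p = 0.00312) and gave 0.28 ± 0.14, adjusted p = 0.234 against medium. The count against DMSO was 3 or 4 without NE replicate 2 or 3 or any 1 DMSO library.

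At 3 mM, NM raised 6 of 32 members against medium (2.32%), of which Sult1b1 met the rule for naming. It had 117, 114 and 120.3 CPM with 3 mM NM, 31.7, 36.6 and 23.1 CPM in medium (1.96 ± 0.21, adjusted p = 1.15e-05) and 106, 97.5 and 69.5 CPM in DMSO. The NM wells were above every control well, and against DMSO the change was 0.32 ± 0.20, adjusted p = 0.455. Against DMSO, 1 member was higher and 1 lower (0.679%). Without replicate 1, which stood apart, 14 members were higher than in medium (4.44% of all probes), and the change of Sult1b1 was 1.98 ± 0.18, adjusted p = 4.91e-08. With 3 mM 1NP, Sult1b1 had 59.96, 61.9 and 185 CPM, against 21.1, 16.3 and 28.7 CPM in medium (2.31 ± 0.66, adjusted p = 0.106), and 1 member, Sult2a2_33196, was called against medium (0.223%) and none against DMSO by edgeR (0.57%, with 7 at an unadjusted p under 0.05).

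At 10 mM, NE raised 17 of 32 members against medium and lowered 3 (34%), with a median log2 change of 1.02 over the members and 0.03 over all probes. Against DMSO, 14 were higher and 3 lower (28.9%, median 0.42). By class, 7 of 9 Ugt probes, 6 of 8 Sult probes and 4 of 13 Gst probes rose against medium, 2 Gst probes fell, and 1 of 2 Mgst probes fell. Without replicate 2, the library that stood apart, 17 members rose and 3 fell against medium (30.6% of all probes called).

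The glucuronosyltransferases of the 2a and 2b groups rose together with 10 mM NE. Ugt2b15_33121 had 427, 288 and 348 CPM with NE, 92.8, 102 and 74.6 CPM in medium and 193, 183 and 151 CPM in DMSO. Ugt2b35, which shares the run of bases printed above, had 267, 246 and 245 CPM with NE, 71.7, 77.8 and 57.7 CPM in medium and 126, 111 and 94.9 CPM in DMSO. Every NE well of both lay above every control well. The log2 changes against medium were 2.00 ± 0.25, adjusted p = 4.26e-07 for Ugt2b15_33121 and 1.87 ± 0.22, adjusted p = 2.27e-07 for Ugt2b35. Ugt2b17_33303 had 67.7, 45.8 and 44.2 CPM with NE, against 12.1, 10.02 and 9.79 CPM in medium (2.32 ± 0.28, adjusted p = 3.34e-07), and it was also above DMSO (1.91 ± 0.27, adjusted p = 7.14e-06). Ugt2a3_33032 rose by 1.56 ± 0.33, adjusted p = 0.000616 against medium. The UGT1 probes did not follow: Ugt1a9_52802 had 731, 561 and 605 CPM with NE and 829, 820.5 and 890.3 CPM in medium, with all NE wells lower but no call (-0.41 ± 0.19, adjusted p = 0.1).

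The sulfotransferases Sult1b1 and Sult1a1 were high with 10 mM NE in every well. Sult1b1 had 252, 217 and 152 CPM with NE, against 31.7, 36.6 and 23.1 CPM in medium (2.76 ± 0.27, adjusted p = 1.14e-08), and rose by 1.13 ± 0.25, adjusted p = 0.00143 against DMSO. Sult1a1 had 248, 217 and 263 CPM with NE, 82.9, 84.9 and 72.9 CPM in medium and 69.6, 67.05 and 59.3 CPM in DMSO. It rose by 1.61 ± 0.22, adjusted p = 1.65e-06 against medium and 1.85 ± 0.22, adjusted p = 2.97e-07 against DMSO. Sult2a2_33196 varied from well to well, at 4.83, 14.2 and 1.22 CPM with NE, the highest being the library that stood apart, against 19.5, 13.9 and 10.04 CPM in DMSO.

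Among the glutathione transferases, Gstz1 had 154, 108 and 158 CPM with 10 mM NE and 63.8, 63.9 and 56.9 CPM in medium (1.21 ± 0.22, adjusted p = 0.000128). Gstt2 had 229, 238 and 261 CPM with NE and 124, 144 and 115 CPM in medium (0.93 ± 0.19, adjusted p = 0.000435). Both were above their medium and DMSO wells throughout. Gstm2_8759, of the mu class, rose less (0.56 ± 0.13, adjusted p = 0.00127). Gsto1 had 639.9, 515 and 705 CPM with NE, 539.9, 525 and 492 CPM in medium and 409, 368 and 388 CPM in DMSO. It rose against DMSO (0.63 ± 0.15, adjusted p = 0.00227) and overlapped medium (0.27 ± 0.15, adjusted p = 0.177).
Mgst2 fell, with 550.4, 444 and 544 CPM with 10 mM NE, 901, 965 and 989 CPM in medium and 753, 793 and 872 CPM in DMSO, below all controls (-0.88 ± 0.15, adjusted p = 6.09e-05 against medium and -0.70 ± 0.15, adjusted p = 0.000838 against DMSO). Gstk1 fell against medium (-0.51 ± 0.14, adjusted p = 0.00748) and gave -0.09 ± 0.14, adjusted p = 0.662 against DMSO. Gstp1 had 2694, 1834 and 3109 CPM with NE, which overlaps 2203, 2188 and 2321 CPM in medium (0.21 ± 0.22, adjusted p = 0.48).

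The counts that follow stand beside the 34% of all probes called in the same comparison, and no list was tested against that share. In these wells, 4 of 5 UDP-glucuronate supply probes rose against medium and none fell, with Ugdh at 2.03 ± 0.24, adjusted p = 2.77e-07. Of 6 PAPS supply probes, 3 rose, among them Papss2, which makes PAPS (0.70 ± 0.23, adjusted p = 0.0183), and the sulfate carrier Slc26a1 (2.58 ± 0.42, adjusted p = 2.52e-05). Of 9 glutathione probes, 4 rose and 2 fell: Gclc rose (1.43 ± 0.13, adjusted p = 1.82e-09), while Gss, glutathione synthetase (-0.97 ± 0.27, adjusted p = 0.00661), and Chac1, which degrades glutathione (-2.34 ± 0.44, adjusted p = 0.000141), fell. Of 5 exporter probes 4 rose, and of 2 deconjugating enzyme probes 1 fell. Of 10 regulator probes, 6 rose, among them Nr1i2, which encodes PXR (2.40 ± 0.17, adjusted p = 4.69e-11). Summed hepatocyte markers were 6485 to 8733 CPM with 10 mM NE and 8636 to 10806 CPM in medium, while by probe 3 of 9 were higher and 1 lower, with a median log2 change of 0.38. Cholangiocyte markers were 222 to 287 CPM with NE, against 627 to 737 CPM in medium and 545 to 624 CPM in DMSO, with 3 of 4 tested probes lower than in each (median log2 change -1.22 against medium). Stellate markers, nearly all Tagln, were 75.8 to 115 CPM with NE and 424 to 825 CPM in medium. Their part in these changes was not tested.

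**Figure D2:**
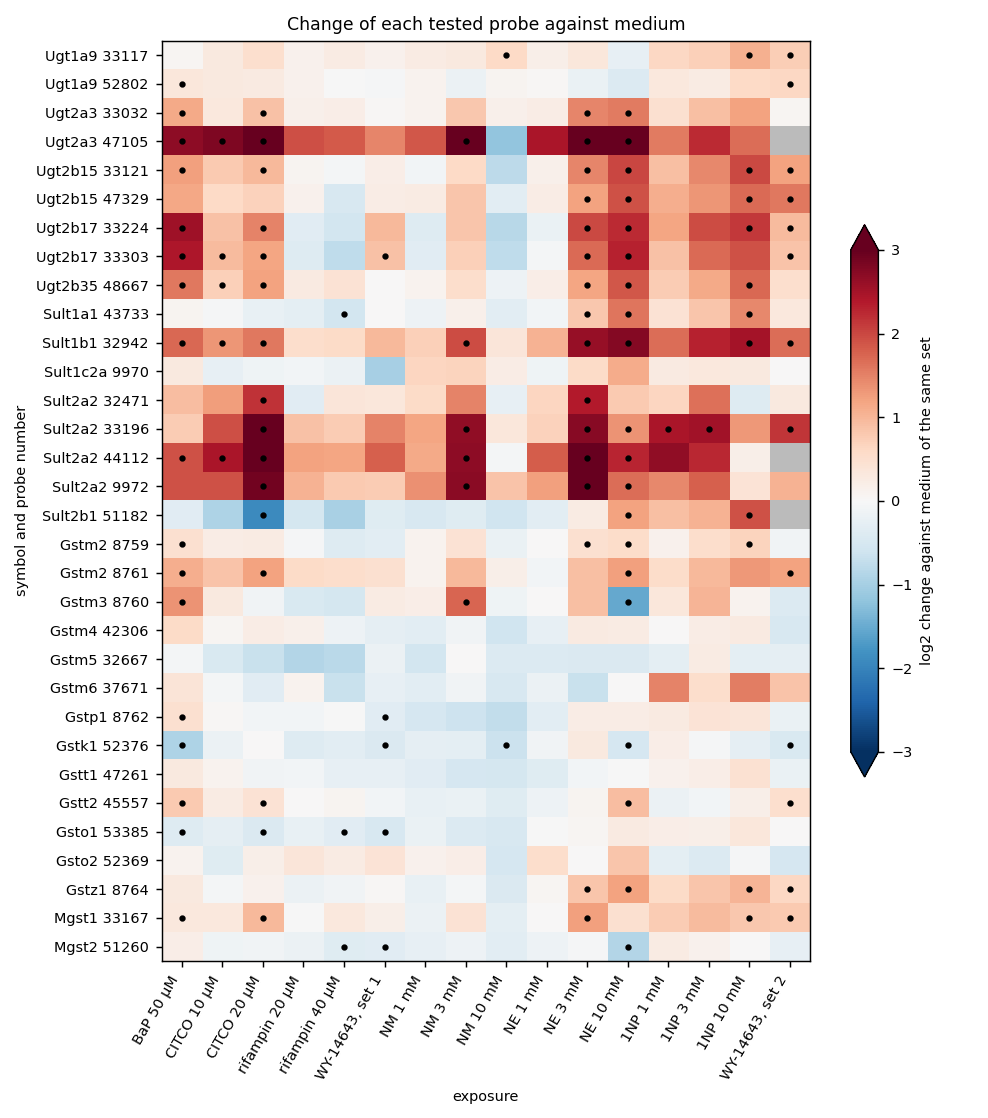
Log2 change of each tested member probe (rows, by family) against medium of its own set, for the reference compounds and for 1, 3 and 10 mM of each nitroalkane (columns). Red is higher than medium, blue lower, grey not tested, colours end at 3 in either direction, and a dot marks a call by edgeR. The block of dots at NE 10 mM covers 20 members, that at NM 10 mM covers 2.

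NM at 10 mM gave 1 member higher and 1 lower than medium (0.662%), and 1 higher and 12 lower than DMSO (7.19%). The probe Ugt1a9_33117 was higher than both, with 157, 177 and 177 CPM with NM, 107, 106 and 113 CPM in medium and 118, 119 and 90.99 CPM in DMSO. No NM well overlapped a control (0.60 ± 0.12, adjusted p = 0.0225 against medium and 0.53 ± 0.14, adjusted p = 0.0174 against DMSO). The other UGT1 probe, Ugt1a9_52802, gave 0.08 ± 0.13, adjusted p = 0.745 against medium. Gstk1 had 103, 94.8 and 72.4 CPM with NM and 133, 145 and 134 CPM in medium (-0.65 ± 0.15, adjusted p = 0.038). The members lower than in DMSO included Ugt2b15_33121 (-1.79 ± 0.35), Ugt2b17_33303 (-1.17 ± 0.27), Sult1b1 (-1.26 ± 0.21), Mgst1 (-0.84 ± 0.23) and Gstt2 (-0.74 ± 0.14). Both calls against medium were lost when NM replicate 2 or 3, or any 1 medium library, was left out. Over all probes, 5 to 29 were called in those refits, against 81 with all libraries.

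The NM libraries that stood apart were low in several members. Gstp1 had 1945, 1779 and 375 CPM in the 3 wells at 10 mM, 469, 1845 and 1915 CPM at 3 mM and 746, 1919 and 2109 CPM at 1 mM. The theta class Gstt1 had 41.5, 38.9 and 9.76 CPM at 10 mM, 9.35, 36.8 and 41.4 CPM at 3 mM and 20.2, 39.5 and 43.9 CPM at 1 mM. The low wells in both genes were replicate 3 of 10 mM, replicate 1 of 3 mM and replicate 1 of 1 mM. Without these libraries, NM at 10 mM gave 4 calls against medium (2.24% of all probes): Ugt1a9_33117 rose (0.60 ± 0.11, adjusted p = 0.000637), and Gstk1 (-0.50 ± 0.10), Ugt2b15_33121 (-0.41 ± 0.11) and Gsto1 (-0.31 ± 0.08) fell.

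1NP at 10 mM was called higher than medium in 11 of 32 members and lower in none (10.2%), and higher in 1 and lower in 2 against DMSO (2.17%). Most of these rises against medium lay in 1 well. Sult1b1 had 33.1, 35.1 and 277 CPM with 1NP and 21.1, 16.3 and 28.7 CPM in medium (2.51 ± 0.66, adjusted p = 0.0259). Ugt2b15_33121 had 65.6, 76.5 and 387 CPM with 1NP and 62.01, 40.9 and 42.4 CPM in medium (1.99 ± 0.50, adjusted p = 0.0221), and Sult1a1 had 71.7, 83.5 and 282 CPM with 1NP and 65.2, 50.2 and 59.5 CPM in medium (1.43 ± 0.36, adjusted p = 0.0213). In all 3 the high value was the library labelled replicate 3, the one closest to the NE 10 mM wells. Without it, Sult1b1 gave 0.66 ± 0.47, adjusted p = 0.5, Ugt2b15_33121 0.60 ± 0.31, adjusted p = 0.329 and Sult1a1 0.45 ± 0.20, adjusted p = 0.267, and 1 member was called (0.666% of all probes). With it, the count of 11 came to 4 without medium replicate 4 and 0 without medium replicate 5. Over all probes, 994 and 3 were called in these refits, against 1237 with all libraries.

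The member called for 1NP without that library was Ugt1a9_33117. It had 262, 339 and 133 CPM with 10 mM 1NP, 113, 81.5 and 168 CPM in medium and 155, 163 and 166 CPM in DMSO. Replicates 1 and 2 were above all controls and replicate 3 was not. The change against medium was 1.08 ± 0.27, adjusted p = 0.0209 with all libraries and 1.33 ± 0.25, adjusted p = 0.0207 without replicate 3. Gstt2 was low in those wells, with 74.4, 64.1 and 183 CPM with 1NP, 102, 113 and 90.4 CPM in medium and 164, 157 and 146 CPM in DMSO. Without replicate 3 it was lower than in DMSO (-1.23 ± 0.16, adjusted p = 1.13e-05) and gave -0.52 ± 0.17, adjusted p = 0.117 against medium. Against DMSO, 6 members were called without replicate 3 (4.78%), with Ugt1a9_33117 higher (0.84 ± 0.18, adjusted p = 0.0052). With replicate 3 kept, the count of 3 against DMSO came to 0 or 1 when any 1 DMSO library was left out. Over all probes, 101 to 142 were then called, against 263 with all libraries. Summed stellate markers were 39.0 CPM in replicate 3, the lowest of set 2, against a median of 629 CPM, and their part was not tested.

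**Figure D3:**
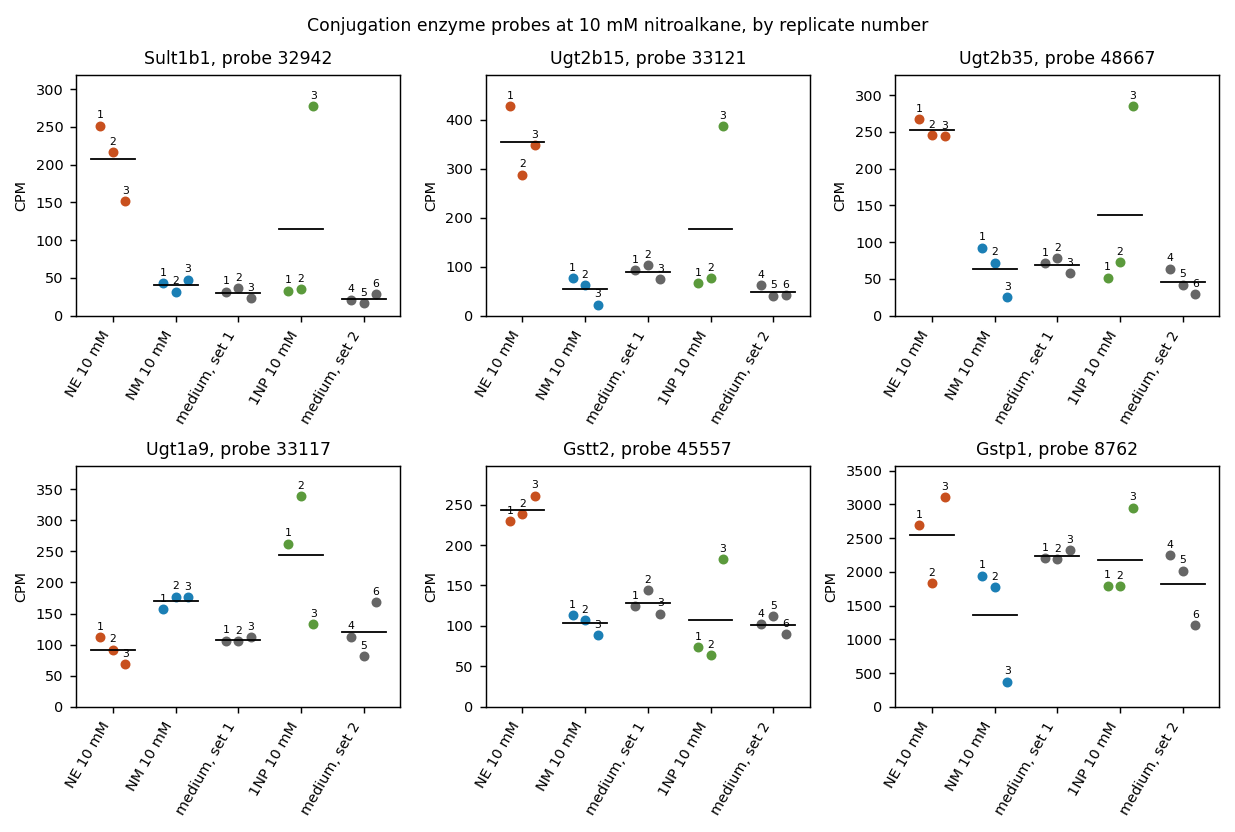
CPM of 6 member probes in each well at 10 mM NE and NM beside medium of set 1, and at 10 mM 1NP beside medium of set 2 (points labelled with the replicate number, n = 3 a group; lines mark the mean). The library labelled 1NP replicate 3 lies at 277 CPM for Sult1b1, near the NE wells, and NM replicate 3 lies at 375 CPM for Gstp1.

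NE and NM, which differ by the length of the carbon chain and lie in the same set, were compared directly at 10 mM. Of 31 members tested, 13 were higher and 1 lower with NE than with NM (11.7%), with a median log2 difference of 1.03 over the members and 0.01 over all probes. Ugt2b17_33303 had 67.7, 45.8 and 44.2 CPM with NE, against 5.55, 7.27 and 6.64 CPM with NM (log2 difference 3.08 ± 0.30, adjusted p = 0.000889). Sult1b1 had 252, 217 and 152 CPM with NE, against 43.3, 31.8 and 47.8 CPM with NM (2.39 ± 0.26, adjusted p = 0.00141). The wells of the 2 compounds did not overlap in either. Sult1a1 (1.92 ± 0.24), Gstz1 (1.63 ± 0.34) and Ugt2b35 (2.04 ± 0.44) were also higher with NE. Ugt1a9_33117 was lower with NE, at 113, 92.1 and 68.8 CPM in the NE wells and 157, 177 and 177 CPM in the NM wells, a difference of -0.84 ± 0.23 at an adjusted p just under the threshold. The count was 1 without replicate 2 and 7 without replicate 1 of both compounds, and 22 without the libraries that stood apart (40% of all probes). Over all probes, 95 were called without replicate 2 and 254 without replicate 1, against 1352 with all libraries.

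Because 1NP belongs to set 2, each compound's effect was first taken against its own medium and the effects were then compared, which makes 3 pairs of compounds in all, each adjusted over its own probes. No member was called as different between NE and 1NP (0%, by edgeR and DESeq2, with 4 of 31 at an unadjusted p under 0.05) or between NM and 1NP (0%, by both tools, with 13 of 30 at an unadjusted p under 0.05). The intervals were wide. For Sult1b1 the NE effect minus the 1NP effect was 0.28 ± 1.06 (95% interval -1.79 to 2.35), and the NM effect minus the 1NP effect was -2.09 ± 0.92 (-3.90 to -0.28). Without the libraries that stood apart, 12 members differed between NE and 1NP (15.3% of all probes): 9 were higher with NE, among them Sult1b1 (2.14 ± 0.40, adjusted p = 0.00231), Gstt2 (1.53 ± 0.19, adjusted p = 2.06e-05) and Ugt2b15_33121 (1.59 ± 0.25, adjusted p = 0.000206). The 3 lower with NE were both Ugt1a9 probes (Ugt1a9_52802 at -1.01 ± 0.20, adjusted p = 0.00201) and Mgst2 (-0.87 ± 0.19, adjusted p = 0.0034). Without these libraries no member was called between NM and 1NP by edgeR (0 of 30, 0%).

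Over the whole concentration series, with medium as rank 0, the slope was called for 18 of 32 members with NE (17 up, 1 down, 27.8% of all probes called), 15 with 1NP (all up, 11.3%) and 8 with NM (4 up, 4 down, 14%). For NE, Sult1b1 rose by 0.32 ± 0.04, adjusted p = 5.87e-07 per rank and Ugt2b17_33303 by 0.28 ± 0.04, adjusted p = 2.34e-05. Ugt1a9_33117 rose with 1NP (0.13 ± 0.02, adjusted p = 0.0009) and with NM (0.07 ± 0.01, adjusted p = 0.00052), and gave -0.01 ± 0.03, adjusted p = 0.738 with NE. Gstk1 fell with NM (-0.07 ± 0.01, adjusted p = 0.00341). With DMSO in place of medium as rank 0, the slope was called by edgeR for 13 members with NE, 2 with NM and 0 with 1NP. Over all probes, 2638, 1377 and 109 slopes were then called, against 3425, 1712 and 1368 with medium. The 1NP count was 3 without the library that stood apart, 3 without replicate 2 and 2 without replicate 3 of every group (540, 304 and 450 of all probes). The NM count was 5 without its libraries that stood apart (560 of all probes), and 3, 5 and 2 without replicates 1, 2 and 3 (217, 795 and 139). Each concentration filled one plate row, so concentration and row cannot be told apart.

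**Figure D4:**
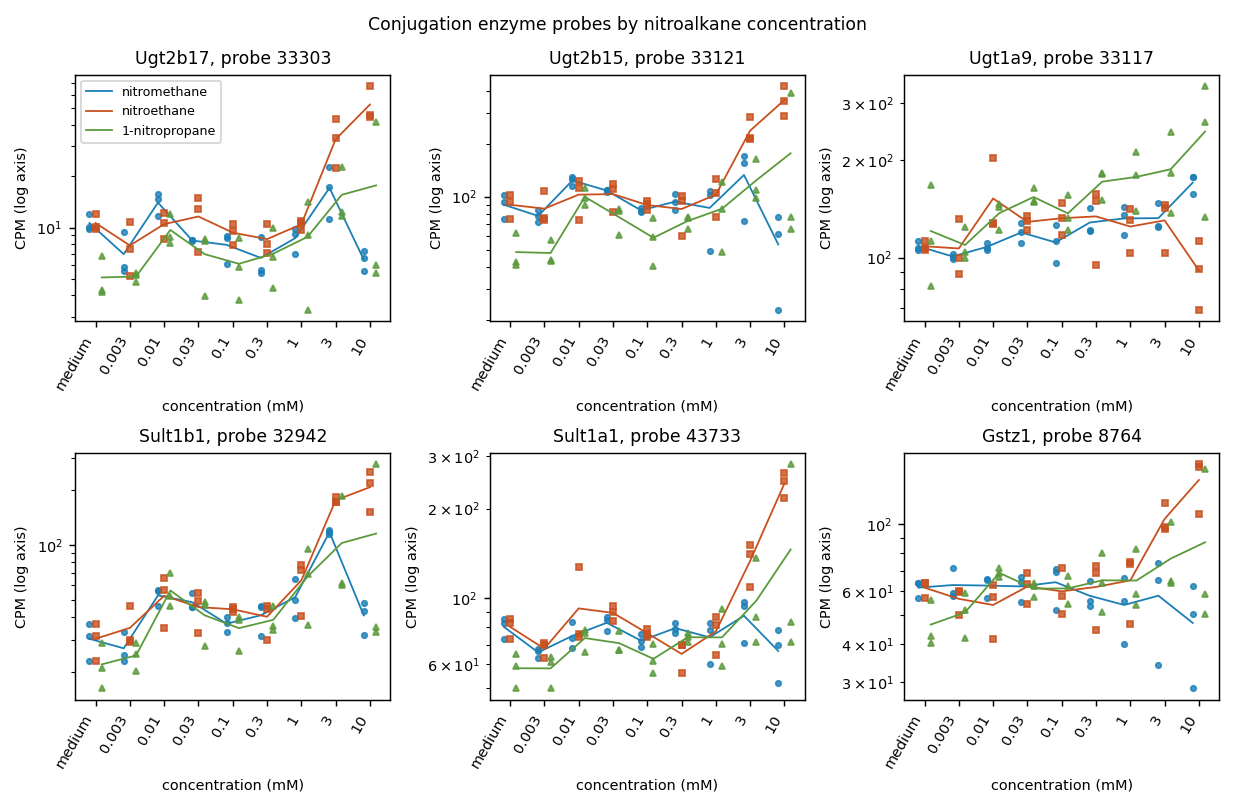
CPM (log axis) of 6 member probes against concentration for NM, NE and 1NP, with medium of the own set at the left (points are wells, n = 3 a group; lines join group means). NE leaves medium at 3 and 10 mM for Sult1b1, with 152 to 252 CPM at 10 mM, while Ugt1a9_33117 is highest with 1NP.

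Across all groups, Sult1b1 was the member of at least 10 CPM called in most comparisons, 27 in all. The probes of the whole table whose group-mean log2 levels were most like it over the 24 groups of set 1 were Cps1, which opens the urea cycle (Pearson 0.97), Cpn2, a subunit of plasma carboxypeptidase N (0.96), and Bhmt2, a methyltransferase of methionine metabolism (0.95). The groups share one cell lot and both controls, so these values are descriptions. Cps1 is also among the hepatocyte markers summed above.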

How the data were processed

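RNA of 105 wells of primary rat hepatocytes was measured with TempO-Seq. The authors deposited 1 table of raw counts per probe, and the values are whole numbers with no normalization. The submitters' processing notes name FastQC, Bowtie, R 3.5.3 and DESeq2 1.28.1 without their roles, and the genome build is not given in the sources used here. The labels call the panel human, while the symbols are those of rat. Groups came from the sample titles, and the set from the prefix of the library names. Formaldehyde wells mentioned in the protocol were not analysed here.

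Counts were tested with edgeR 4.0.16 (R 4.3.3, limma 3.58.1) by the quasi-likelihood F test, with filterByExpr (minimum count 10, minimum total 15), TMM scaling and robust dispersions. The reference compounds and controls of a set shared 1 fit, and so did the 8 concentrations of a nitroalkane with each control. P-values were adjusted by Benjamini-Hochberg over all probes kept, with a threshold of 0.05. SE was derived from F (log2 change over its square root), and intervals are 95% normal intervals. The smallest chi-square per degree of freedom between replicates was 2.82, so no library was counted as a repeat. Scripts were tested on simulated data.

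The members, pathway lists, markers and motifs were chosen with earlier results of these data known. A further gene list is not reported here. Named members were called, averaged at least 10 CPM over the libraries compared and had groups that did not overlap, up to 12 per direction. Members so named for a reference compound or at 10 mM, and the 10 most abundant, could be followed in every group. Values of members outside this rule (Gstt1) were chosen after they were seen.

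Replicate numbers 1 to 3 recur in the groups of set 1. Deviations from group means of same-numbered wells correlated above 0.1 in every pair for BaP against DMSO (0.26, 0.11 and 0.40), and in no other comparison did all 3 pairs do so. Alternatives were DESeq2 1.42.0, its size factors, no filter, only the 2 groups compared, the replicate block, DMSO as the other control, and leaving out single libraries. Leaving out the libraries that stood apart was chosen after seeing the data. Promoters were searched with Python 3.11.15.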

Additional observations from a re-analysis of the deposited data

How the results depend on the processing

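All values here are numbers of members called, with the value of the report in parentheses. The number of all probes called moved as well. For the NE slope it was 10306 without the filter and 3425 in the report, and members below the filter could then be called too. With only the 2 groups compared in the fit it was 47 for NM 10 mM against DMSO (879 in the report). For 1NP 10 mM against medium it was then 0 (1237 in the report). Without the filter on low counts the numbers were 11 for CITCO 10 µM against medium (5), 5 for CITCO 20 µM against DMSO (1), 12 and 1 for rifampin 20 µM against DMSO (5) and medium (0), 9 and 8 for rifampin 40 µM against DMSO (3) and medium (3), 8 and 9 for WY-14643 of set 1 against DMSO (4) and medium (5), 2 for WY-14643 of set 2 against DMSO (0), 29 for the NE slope (18) and 1 between the NE and 1NP effects (0). DESeq2 gave 3 for CITCO 20 µM against DMSO (1), 8 and 1 for rifampin 20 µM against DMSO (5) and medium (0), 5 for rifampin 40 µM against DMSO (3) and 11 for NE 3 mM against DMSO (7). With only the 2 groups compared in the fit, which leaves fewer samples, the numbers were 10 for CITCO 10 µM against medium (5), 9 and 2 for rifampin 20 µM against DMSO (5) and medium (0), 3 for WY-14643 of set 2 against DMSO (0), and 0 for NM 10 mM against DMSO (13) and medium (2) and for 1NP 10 mM against DMSO (3) and medium (11). With DMSO at rank 0 the slope was called for 2 members with NM (8) and 0 with 1NP (15). Over all probes it was then called for 1377 with NM (1712) and 109 with 1NP (1368). DESeq2's size factors moved none of the 30 counts beyond 1.5 times, and taking DMSO as the control of each set moved neither comparison of effects with 1NP.

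With the replicate block, where the numbers did not pair the wells in all 3 pairs, CITCO 20 µM against DMSO gave 2 (1) and rifampin 20 µM against DMSO gave 9 (5), and the other counts stayed within 1.5 times, BaP included. No paired analysis was possible because the 1NP wells are numbered 1 to 3 and their controls 4 to 6, for the 1NP comparisons.

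Without the libraries that stood apart, the numbers were 4 for NM 10 mM against medium (2), 6 and 1 for 1NP 10 mM against DMSO (3) and medium (11), 5 for the NM slope (8), 3 for the 1NP slope (15), 22 for NE against NM at 10 mM (14) and 12 between the NE and 1NP effects (0).

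Leaving out 1 library or replicate gave 7 to 12 for BaP against DMSO and 12 to 18 against medium, 0 to 0 for CITCO 10 µM against DMSO and 1 to 4 against medium, 0 to 1 for CITCO 20 µM against DMSO and 13 to 17 against medium, 1 to 6 for rifampin 20 µM against DMSO and 0 to 0 against medium, and 1 to 4 for rifampin 40 µM against DMSO and 0 to 3 against medium. It gave 2 to 4 for WY-14643 of set 1 against DMSO and 2 to 6 against medium, 0 to 0 for WY-14643 of set 2 against DMSO and 7 to 17 against medium, and 8 to 12 in set 1 and 10 to 19 in set 2 for medium against DMSO. For the nitroalkanes it gave 10 to 12 for NM 10 mM against DMSO and 0 to 2 against medium, 3 to 6 for NE 3 mM against DMSO and 13 to 16 against medium, 13 to 18 for NE 10 mM against DMSO and 16 to 21 against medium, and 0 to 6 for 1NP 10 mM against DMSO and 0 to 14 against medium. Slopes gave 2 to 5 for NM, 12 to 17 for NE and 2 to 14 for 1NP. The comparison of NE with NM gave 1 to 16, that of the NE and 1NP effects 0 to 11 and that of the NM and 1NP effects 0 to 4, the last 2 highest without replicate 3.

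The 149 named changes were recomputed 1657 times in all: 1438 kept direction and call, 219 lost the call and 0 reversed. Named changes were chosen for groups that do not overlap, and leaving out a library keeps such groups apart. The 0 reversals therefore follow largely from that choice and are no separate support. The causes were not tested. Wells of 1 cell lot, plate rows joined to concentrations, and probes of closely related genes limit what these values show. Probes under 10 CPM rest on few counts, and 3 counts correspond to 0.27 to 0.548 CPM across the libraries.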

Other observations

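Low-abundance Sult2a2 and Gstm3 probes fall outside the naming rule in most comparisons and were chosen after their values were seen. Gstm3, of the mu class, had 11.3, 11.9 and 6.61 CPM with BaP and 4.85, 2.88 and 4.79 CPM in DMSO, and 1.61, 1.20 and 1.11 CPM with 10 mM NE and 4.29, 4.51 and 2.73 CPM in medium. It was thus higher than its control with BaP in every well and lower with NE in every well.

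In NE 0.01 mM, replicate 3 was high in 2 members: Sult1a1 had 75.9, 74.3 and 127 CPM there, against 82.9, 84.9 and 72.9 CPM in medium, and Ugt1a9_33117 had 126, 128 and 202 CPM, against 107, 106 and 113 CPM in medium.

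At 3 mM 1NP, replicate 3 was likewise the high well of Sult1b1, at 59.96, 61.9 and 185 CPM, and of Ugt2b15_33121, at 98.7, 109 and 163 CPM, against 62.01, 40.9 and 42.4 CPM in medium, while its correlation with its own group was not under 0.98.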
